A study of Homo sapiens with 54 samples.

Results

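CKI lacking oxymatrine and oxysophocarpine was compared with whole CKI in MDA-MB-231 cells after 48 h of treatment. CKI (Compound Kushen Injection) is a medicinal extract of the plants Sophora flavescens and Heterosmilax chinensis, and oxymatrine and oxysophocarpine are alkaloids of it, the N-oxides of matrine and sophocarpine. MDA-MB-231 is an established human line, grown from a breast cancer that lacks estrogen receptor. The comparison rests on 6 of the 54 RNA-seq libraries of the series, chosen by treatment label, time and batch: 3 libraries of cells given CKI at 2 mg/ml and 3 of cells given the mixture without both alkaloids (N-OmtOspc) at the dose equivalent to 2 mg/ml CKI, all of batch 1. The mixtures were made by fractionating CKI and recombining the fractions. There were 3 further contrasts that share no library with it: N-OmtOspc against CKI after 24 h in batch 1, CKI without oxymatrine alone (N-Omt) against CKI after 48 h in batch 2, and untreated cells against cells given only the alkaloid pair (OmtOspc) after 48 h in batch 1, each with 3 libraries a group. All treated libraries of these contrasts carry the dose label of 2 mg/ml as well. Untreated and CKI libraries of batch 2 at 48 h served for the response to CKI in that batch. The series describes its replicates as biological.

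Cells meet damaged or misfolded proteins with a small set of transcriptional programmes. Heat shock factor switches on cytosolic chaperones, metal-responsive factor MTF1 switches on metallothioneins when free zinc or related metals rise, and stress kinases that slow translation induce the factors ATF4 and CHOP, which act on amino acid transport and synthesis. Genes of DNA replication are driven by E2F factors as cells enter S phase, and their transcripts fall when cells leave the cycle.

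Removing both alkaloids was followed by 11672 of 15010 tested genes (77.8%) being differentially expressed (DE) between N-OmtOspc and CKI at an adjusted p under 0.05, with 5749 higher (38.3%) and 5923 lower (39.5%) in N-OmtOspc. A log2 fold change here is N-OmtOspc minus CKI, tested by edgeR's quasi-likelihood method, with p-values adjusted after Benjamini and Hochberg. Among the DE genes 2195 (14.6% of those tested) were at least 2-fold higher and 1918 (12.8%) at least 2-fold lower. Since most tested genes were DE, counts over gene lists below are read against these shares. The libraries held 20073324 to 26138924 counted reads, and levels are given as CPM, read counts relative to library size after TMM scaling, and these compare a gene between libraries but not genes with each other.

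In a principal component analysis of the 18 libraries of batch 1 at 48 h, over 11290 genes, the 3 N-OmtOspc libraries lay between 57.9 and 60.6 on the first component, which held 60.4% of the variance. The CKI libraries lay between -26.1 and -24.3 and untreated libraries between -43.8 and -42, so that CKI lay nearer to untreated cells than to N-OmtOspc. Cells given OmtOspc alone lay between -14.7 and -13.7. The mixture most like N-OmtOspc, which also lacks the component macrozamin (N-MacOmtOspc), lay between 45 and 46. The position far from CKI on this component was thus shared by both mixtures that lack the alkaloids.

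**Figure D1:**
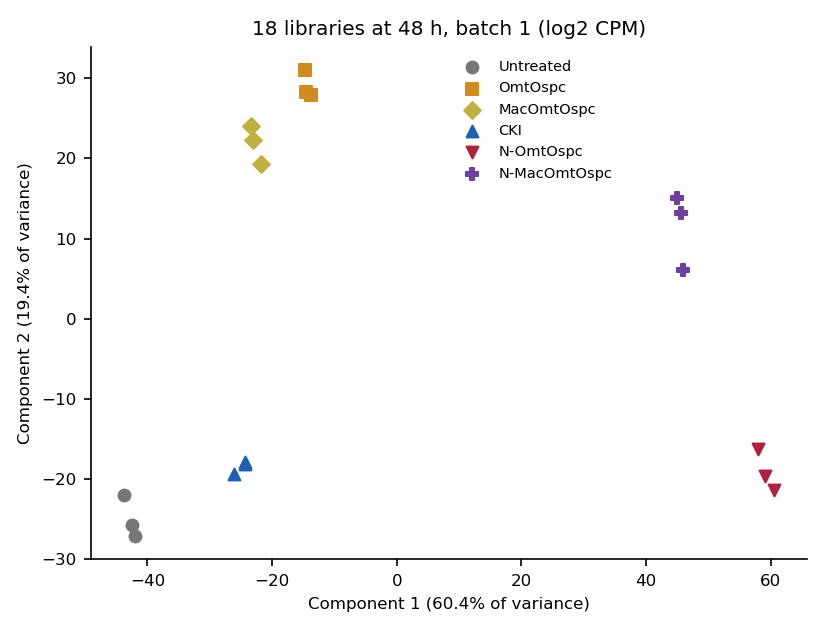
Each point is 1 of 18 libraries of batch 1 at 48 h, placed by its scores on the first 2 principal components of log2 CPM (60.4% and 19.4% of variance), with shape and colour for the treatment; MacOmtOspc and N-MacOmtOspc are mixtures that concern macrozamin as well. The 3 N-OmtOspc libraries lie farthest to the right on the first component, with those of N-MacOmtOspc next to them. The CKI and untreated libraries lie on the left.

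The labelled cell line was checked against marker genes. The summed level of 7 genes that MDA-MB-231 expresses highly was between 2090 and 2190 CPM in N-OmtOspc and between 3190 and 3310 in CKI, with 6 lower and 1 higher. Of 6 genes the line lacks or has low, KRT5 was at 0 in both groups and ESR1 and PGR at 0 in CKI, and the sum was 46.6 to 51.2 CPM in N-OmtOspc against 19.4 to 22.3 in CKI. The 7 fibroblast markers summed to 84 to 90.1 CPM against 46 to 49.3, led by COL1A1 at 57.6 to 64.2 against 21.9 to 23.4. Of 5 tested, 2 were higher (COL1A1 and COL1A2), 1 was lower (LUM, at 2.31 to 3.65 against 5.72 to 6.75 CPM) and 2 were not DE, while DCN was at 0 in 5 of the 6 libraries and THY1 at no more than 0.0474 CPM. In bulk RNA, fewer cells of a type and less RNA per cell cannot be told apart, and the part of these shifts in the results below was not tested.

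The promoters of 5 genes from the programmes that separated the groups are shown with known regulatory letters marked. Whether these letters bear on the values below was not tested. Each is the stretch of 250 bases before the gene's start in RefSeq on GRCh38.p14, printed 5′ to 3′ on the gene's own strand, with matches in capitals. HSPA6 (chr1:161524290-161524539, plus strand) and HSPA1A (chr6:31815293-31815542, plus strand) were searched for the heat shock element GAANNTTC, MT1X (chr16:56682220-56682469, plus strand) for the metal response element TGCACNC or TGCGCNC, GINS2 (chr16:85688955-85689204, minus strand) for the E2F element TTTCCCGC or TTTGGCGC, and CHAC1 (chr15:40953221-40953470, plus strand) for the C/EBP-ATF response element TGATGNAA, each on both strands.
HSPA6: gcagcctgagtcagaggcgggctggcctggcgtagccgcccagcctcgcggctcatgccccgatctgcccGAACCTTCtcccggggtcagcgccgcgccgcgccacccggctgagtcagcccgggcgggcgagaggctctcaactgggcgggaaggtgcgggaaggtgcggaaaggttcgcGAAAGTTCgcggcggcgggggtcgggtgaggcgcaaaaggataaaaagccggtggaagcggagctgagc
HSPA1A: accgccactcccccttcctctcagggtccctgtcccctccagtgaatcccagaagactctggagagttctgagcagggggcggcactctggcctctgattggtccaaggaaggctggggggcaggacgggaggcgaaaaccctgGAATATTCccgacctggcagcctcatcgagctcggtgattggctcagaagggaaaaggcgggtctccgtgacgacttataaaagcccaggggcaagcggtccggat
MT1X: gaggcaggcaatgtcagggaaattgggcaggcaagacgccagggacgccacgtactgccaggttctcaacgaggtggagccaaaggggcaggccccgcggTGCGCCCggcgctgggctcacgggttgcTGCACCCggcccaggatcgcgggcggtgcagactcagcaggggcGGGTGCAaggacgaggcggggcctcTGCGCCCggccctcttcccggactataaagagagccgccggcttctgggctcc
GINS2: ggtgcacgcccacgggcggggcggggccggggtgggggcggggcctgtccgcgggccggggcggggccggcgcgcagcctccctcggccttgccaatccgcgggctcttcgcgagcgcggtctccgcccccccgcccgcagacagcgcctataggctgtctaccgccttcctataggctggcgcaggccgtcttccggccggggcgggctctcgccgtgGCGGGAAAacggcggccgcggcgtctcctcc
CHAC1: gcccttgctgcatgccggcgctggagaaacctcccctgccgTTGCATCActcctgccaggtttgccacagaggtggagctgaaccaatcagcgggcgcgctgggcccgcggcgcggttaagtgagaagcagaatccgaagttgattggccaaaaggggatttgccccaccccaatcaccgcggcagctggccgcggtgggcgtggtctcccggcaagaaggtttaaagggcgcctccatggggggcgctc
HSPA6 had 2 matches, which began 180 and 69 bases before the start, and HSPA1A had 1 at 106 bases. MT1X had 4, at 150, 122, 78 and 53 bases, GINS2 had 1 at 31 bases and CHAC1 had 1 at 209 bases. These letters are a description and not evidence of binding.

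Across the promoters of 27305 genes, 8.21% held the heat shock element, against 8 of 12 heat shock chaperone genes with a promoter (66.7%). The metal response element was in 33.4% of all promoters and in 4 of 5 in the metallothionein list (80%), but also in 15 of 22 of the DNA replication list (68.2%). The E2F element was in 2.75% of all promoters and in 14 of 22 of the DNA replication list (63.6%), against 1 of 20 in the mitosis list (5%). The C/EBP-ATF element was in 4.46% of all promoters and 4 of 17 in the ATF4 and CHOP list (23.5%).

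HSP70 genes were among those with the largest rise. HSPA6, a heat-inducible HSP70 that is nearly silent in unstressed cells, rose most among called genes that averaged 10 CPM or more in either group. It was at 0.891, 1.03 and 0.635 CPM in the CKI libraries and at 258, 182 and 202 CPM in the N-OmtOspc libraries. The groups lay far apart, and the log2 fold change was 7.98 ± 0.15 (SE), with an adjusted p of 2.08e-20 by edgeR's quasi-likelihood test. It was at 1.71, 1.72 and 2.08 CPM in untreated cells and at 25.6, 26 and 25.3 CPM with OmtOspc alone. HSPA6 was thus low with both the alkaloids and the rest of CKI together, at an intermediate level with the alkaloids alone and high with the rest alone.

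HSPA1A, an inducible HSP70 of the cytosol, went the same way. Its level was 411, 388 and 402 CPM with CKI, 6320, 4550 and 5330 CPM with N-OmtOspc, 427, 466 and 474 CPM in untreated cells and 1510, 1520 and 1460 CPM with OmtOspc, and its log2 fold change between N-OmtOspc and CKI was 3.78 ± 0.09 (SE). No N-OmtOspc library overlapped with any library of the other 3 groups. HSPA1B, its near-identical copy, had a log2 fold change of 3.72, and HSPA7, a copy of HSPA6, had 6.94, so that how reads divide between each pair is uncertain. The HSP40 co-chaperone DNAJB1 rose by a log2 fold change of 1.43, the small chaperone HSPB1 by 1.15 and the HSP110 member HSPH1 by 1.06.

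All 12 tested members of the 13-gene list of heat shock chaperones, which does not hold HSPA6, were DE and higher with N-OmtOspc, against 38.3% of all genes, and 5 were at least 2-fold higher. Their median log2 fold change was 0.56, against -0.00319 over all tested genes. HSP90AA1 had the smallest rise, at 0.18 on the log2 scale. CRYAB was too low to be tested.

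**Figure D2:**
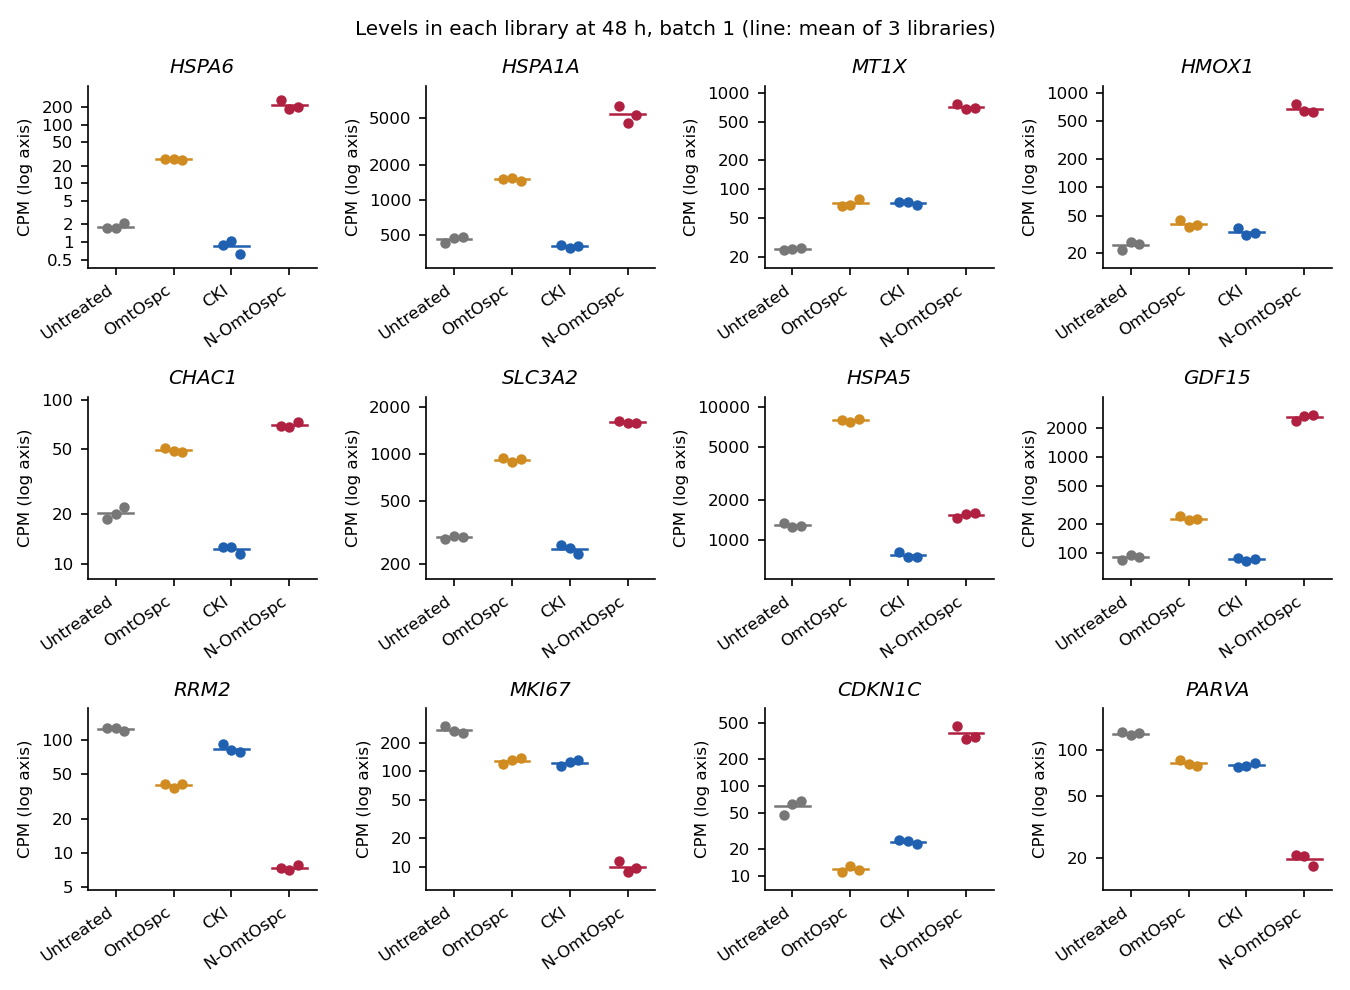
Levels of 12 genes in CPM (log axis) in each of 3 libraries of untreated cells and cells given OmtOspc, CKI or N-OmtOspc, at 48 h in batch 1. HSPA6 in N-OmtOspc (182 to 258 CPM) lies above every other group, RRM2 (7.11 to 7.92 CPM) lies below every other group, and HSPA5 is highest with OmtOspc alone (7790 to 8170 CPM).

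Metallothioneins, small proteins that bind zinc, copper and cadmium, rose as a group. MT1X was at 73.4, 73.2 and 68.3 CPM with CKI and at 762, 677 and 703 CPM with N-OmtOspc, a log2 fold change of 3.34 ± 0.06 (SE). In untreated cells it was at 23.7, 24.3 and 24.5 CPM and with OmtOspc at 67.3, 69 and 79.5 CPM. The CKI and OmtOspc libraries thus lay in the same range, above untreated cells, and N-OmtOspc was 10.1-fold above CKI.

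MT1F went from 3.78, 3.09 and 2.74 CPM to 86.6, 80.5 and 83.9 CPM (log2 fold change 4.74 ± 0.09, SE), and MT2A, the most widely expressed member, from 519, 456 and 455 CPM to 3300, 3050 and 2970 CPM. MT1E had a log2 fold change of 3.54. MT1M was not counted in any of the 3 CKI libraries and was at 4.15, 4.22 and 4.41 CPM with N-OmtOspc, at least 35.8-fold higher against a floor of 3 counts per library (0.119 CPM). The MT1 genes are close copies, and reads shared between them make the split among them uncertain.

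Both tested regulators of zinc in the list moved with them: SLC30A1, which exports zinc, from 32.1, 29.2 and 28.5 CPM to 270, 222 and 239 CPM, and MTF1, the metal-sensing factor, by a log2 fold change of 1.54. Of the 9-gene list 7 members were tested, and MT1M passed the filter on low counts only through N-OmtOspc, so that its direction was fixed. The other 6 were DE and at least 2-fold higher, with a median of 3.20. Against untreated cells the median of these 6 was 0.26 for CKI and 3.34 for N-OmtOspc, which share the untreated libraries.

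HMOX1, the heme-degrading enzyme induced by oxidants, metals and heme, was at 37.6, 31.4 and 32.5 CPM with CKI and at 760, 642 and 622 CPM with N-OmtOspc (log2 fold change 4.34 ± 0.08, SE). The targets of NRF2, the factor for oxidant defence, to which HMOX1 belongs, were divided. Of 22 tested members 8 were higher, 6 of them at least 2-fold, and 10 lower, 1 of them at least 2-fold, with a median of -0.09. FTH1, the ferritin heavy chain, and AKR1C1, an aldo-keto reductase with close copies, were higher by 1.87 and 2.79 on the log2 scale, while NQO1 and SRXN1, which reduce quinones and sulfinylated peroxiredoxins, were lower, at -0.82 and -0.80.

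The ATF4 and CHOP branch of the stress response was higher with N-OmtOspc. CHAC1, which degrades glutathione, was at 12.6, 12.7 and 11.5 CPM with CKI and at 69.7, 69 and 73.4 CPM with N-OmtOspc (log2 fold change 2.55 ± 0.07, SE). SLC3A2, the heavy chain of amino acid transporters, was at 264, 252 and 229 CPM against 1620, 1590 and 1590 CPM (2.71 ± 0.06, SE). DDIT3, which encodes CHOP, was at 20, 18.7 and 17.6 CPM against 84.4, 81.8 and 86.6 CPM (2.19 ± 0.07, SE).

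Of 20 tested members, 17 were higher and 3 lower, 14 were at least 2-fold higher, and the median was 1.53. TRIB3, a pseudokinase induced by CHOP, rose by 2.60, ATF3 by 2.69 and ATF4 itself by 1.21 on the log2 scale. The 3 that were lower were DDIT4, at -0.27, PSPH, at -0.23, and SHMT2, a mitochondrial enzyme of serine metabolism, at -0.43.

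The alkaloids given alone raised this branch as well. With OmtOspc, CHAC1 was at 51, 49.1 and 48.4 CPM, SLC3A2 at 941, 890 and 938 CPM and DDIT3 at 212, 203 and 210 CPM, while in untreated cells the levels were 18.7 to 22.1, 289 to 302 and 21.6 to 23.6 CPM. For DDIT3 the OmtOspc libraries were higher than those of N-OmtOspc, and for CHAC1 and SLC3A2 they were lower. Of the 20 members, 18 were higher with OmtOspc than in untreated cells and 1 was lower, against 67.8% of all 14432 genes called in either direction. Each component set alone thus gave high levels of these genes, while whole CKI was below the untreated level for CHAC1, SLC3A2 and DDIT3.

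ER chaperones, which fold proteins in the endoplasmic reticulum, did not follow that branch. HSPA5, the main ER chaperone BiP, was at 802, 739 and 740 CPM with CKI, 1460, 1570 and 1580 CPM with N-OmtOspc, 1340, 1250 and 1270 CPM in untreated cells and 8010, 7790 and 8170 CPM with OmtOspc. N-OmtOspc lay above CKI (log2 fold change 1.04 ± 0.05, SE) and far below the alkaloids alone. Of 16 members tested, 6 were higher and 9 lower with N-OmtOspc than with CKI, with a median of -0.34, and all 16 were higher with OmtOspc than in untreated cells. HERPUD1, of ER-associated degradation, was higher by 1.02, and PDIA4, a disulfide isomerase, was lower, at -0.96.

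GDF15, a secreted stress cytokine of the TGF-beta family that both p53 and CHOP induce, was at 87.7, 82.3 and 86.1 CPM with CKI and at 2360, 2670 and 2730 CPM with N-OmtOspc (log2 fold change 4.94 ± 0.07, SE). It was at 84, 94.4 and 90.7 CPM in untreated cells, overlapping with CKI, and at 240, 218 and 223 CPM with OmtOspc. Other p53 targets were divided: of 18, 8 were higher, 4 lower and 6 not DE, and the median was 0.11. MDA-MB-231 carries a mutant p53.

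Genes of DNA replication fell. RRM2, the regulated subunit of ribonucleotide reductase, was at 92.3, 82 and 77.8 CPM with CKI and at 7.38, 7.11 and 7.92 CPM with N-OmtOspc (log2 fold change -3.47 ± 0.08, SE). TYMS, thymidylate synthase, was at 42.8, 42.7 and 39.3 CPM against 4.06, 3.37 and 4.32 CPM. GINS2, a subunit of the replicative helicase, was at 12.9, 13.5 and 12.3 CPM against 0.611, 0.763 and 0.854 CPM. For each of these 3 genes every N-OmtOspc library was below every CKI library and every untreated library.

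Of 26 tested members 25 were lower, against 39.5% of all genes, and 21 were at least 2-fold lower. RFC3, a clamp loader subunit, was not DE, with a log2 fold change of -0.05. The list median was -1.72. The MCM helicase subunits ranged from -2.02 for MCM6 to -0.45 for MCM2, and PCNA, the sliding clamp, was lower, at -1.86.

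With the alkaloids alone, these genes were also lower than in untreated cells. RRM2 was at 127, 128 and 121 CPM in untreated cells and at 40.7, 37.9 and 41 CPM with OmtOspc, and 25 of the 26 members were higher in untreated cells than with OmtOspc and none lower. The CKI libraries held RRM2 between these levels and the untreated ones. The median against untreated cells was -0.39 for CKI and -2.14 for N-OmtOspc.

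Mitotic genes fell less evenly. MKI67, the proliferation marker Ki-67, was at 114, 125 and 133 CPM with CKI and at 11.4, 8.88 and 9.77 CPM with N-OmtOspc (log2 fold change -3.61 ± 0.09, SE), and at 298, 262 and 250 CPM in untreated cells. Of 25 members 23 were lower, 17 of them by at least 2-fold, with a median of -1.38. CDC20, which activates the anaphase-promoting complex, was higher with N-OmtOspc, at 142, 118 and 120 CPM against 71.6, 67 and 68.6 CPM, and TTK, a spindle checkpoint kinase, was higher by 0.18 on the log2 scale with an adjusted p of 0.0458 by edgeR's quasi-likelihood test.

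Both CDKN1C and CDKN1A were higher with N-OmtOspc, while the list of G1 cyclins and CDK inhibitors as a whole had 5 of 11 tested members higher and 4 lower, with a median of 0.15. CDKN1C, which encodes the CDK inhibitor p57, was at 25, 24.7 and 22.5 CPM with CKI and at 471, 333 and 354 CPM with N-OmtOspc (log2 fold change 4.03 ± 0.10, SE). It was at 47.9, 63.1 and 68.6 CPM in untreated cells and at 11, 12.9 and 11.7 CPM with OmtOspc, below CKI and untreated cells. CDKN1A, which encodes p21, was at 308, 303 and 280 CPM against 1110, 1050 and 1020 CPM. CCND1, the cyclin of G1, was at 487, 491 and 499 CPM with CKI and at 234, 224 and 217 CPM with N-OmtOspc. CDKN2C, an inhibitor of CDK4 and CDK6, was lower, at -1.04 on the log2 scale, and CDKN1B, which encodes p27, was not DE, at 0.15.

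**Figure D3:**
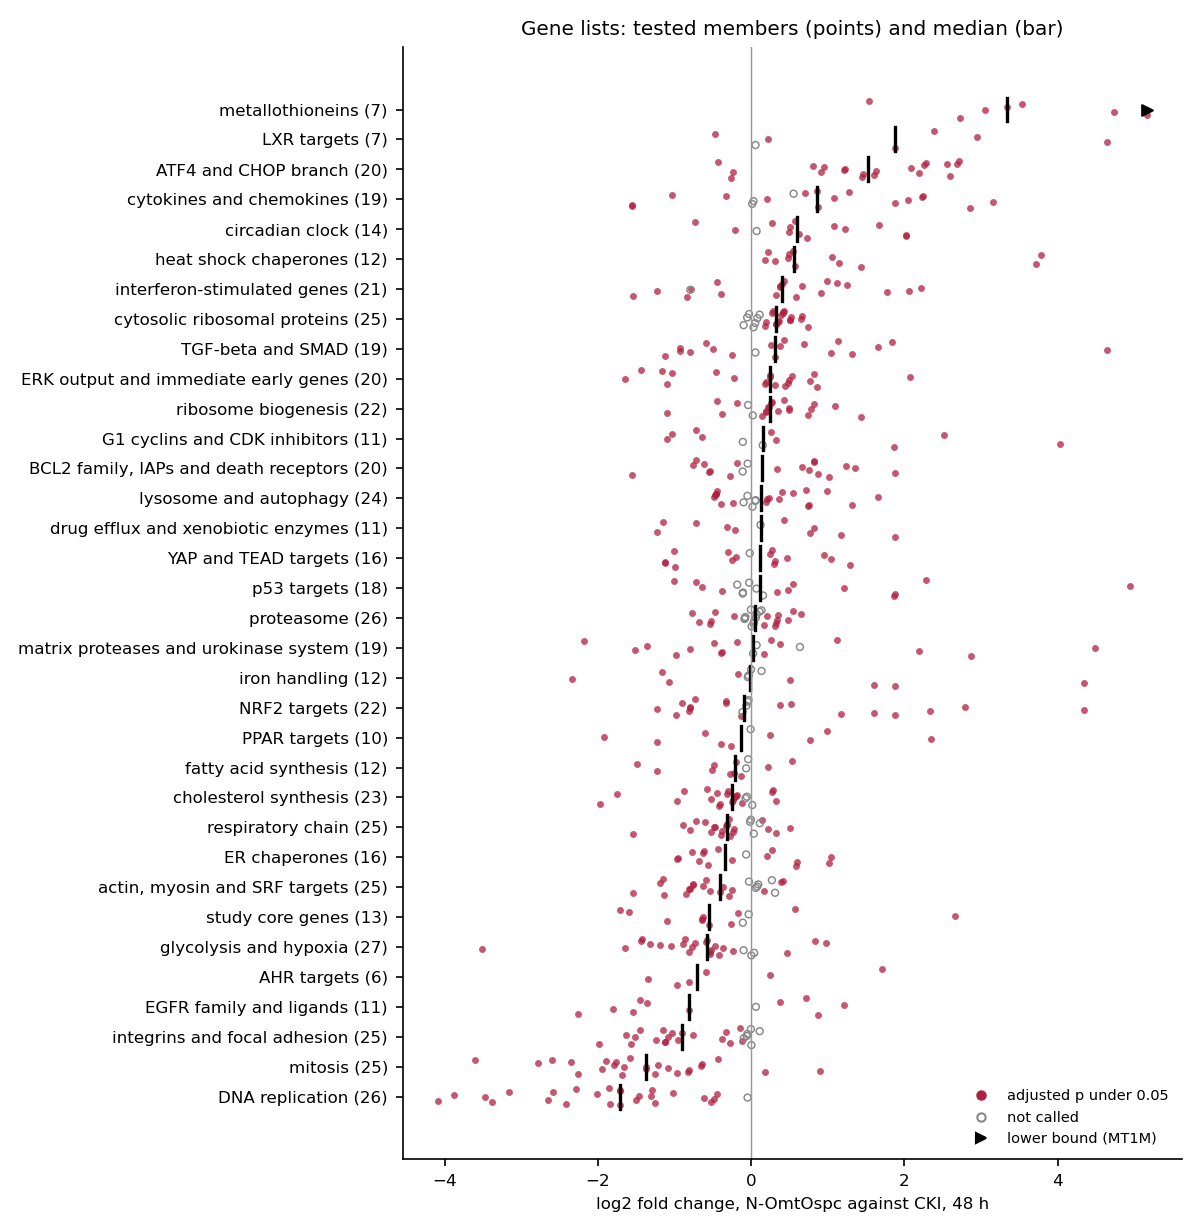
Log2 fold changes of N-OmtOspc against CKI at 48 h for the tested members of each gene list (number tested in brackets), as filled points where the adjusted p was under 0.05 and open points otherwise, with a bar at the list median; the triangle is the lower bound for MT1M. The metallothionein list has the highest median (3.34, or 3.20 without MT1M) and the DNA replication list the lowest (-1.72).

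Among the 12 genes with the largest rise, besides HSPA6, HSPA7, GDF15 and MT1F, were S100P, a calcium-binding protein, and ARC, an immediate early gene known from neurons. S100P was at 0.849, 0.294 and 0.397 CPM with CKI and at 55, 52.9 and 52.4 CPM with N-OmtOspc, and ARC at 1.27, 1.29 and 1.07 CPM against 111, 86 and 94.9 CPM. GADD45G, a growth arrest gene, was at 1.23, 0.845 and 1.39 CPM against 94.9, 75.9 and 87 CPM. In untreated cells S100P and ARC were between 0.53 and 1.06 CPM.

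The other 5 of the 12 were RNF223, EPPK1, CD7, RGS16, a regulator of G protein signalling, and ABCG1, a sterol exporter, with log2 fold changes of 4.96, 4.85, 4.84, 4.74 and 4.64. The 12 with the largest fall included FAM111B, ITGA10, CLDN2, GINS2, SPC25, SPC24, NEGR1, ESCO2, MKI67, BRIP1 and CA9. FAM111B, a protease, was at 19.1, 16.6 and 18.1 CPM with CKI and at 0.655, 0.361 and 0.474 CPM with N-OmtOspc. SPC25 and SPC24 belong to the NDC80 complex of the kinetochore, ESCO2 acetylates cohesin and BRIP1 is a helicase of DNA repair, and their log2 fold changes were -4.04, -3.77, -3.65 and -3.54. In these 24 genes the groups did not overlap, by the rule that chose them, and the largest adjusted p among them was 8.97e-15 by edgeR's quasi-likelihood test.

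Targets of LXR, the sterol-sensing nuclear receptor, were higher with N-OmtOspc in 5 of 7 members, with 1 lower and a median of 1.88. ABCA1, which loads cholesterol onto lipoproteins, was at 10.7, 8.34 and 11.8 CPM with CKI and at 49.9, 57.7 and 50.7 CPM with N-OmtOspc, and APOE, a lipoprotein component, at 4.41, 3.75 and 2.9 CPM against 27.4, 28.6 and 27.8 CPM. None of the 7 was higher with CKI than in untreated cells and 6 were lower. Genes of cholesterol synthesis were lower in 17 of 23 and higher in 3, with a median of -0.26.

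Cytokines and chemokines were higher in 12 of 19 tested members and lower in 4, with a median of 0.85. IL24, a cytokine of the IL10 family, was at 7, 7.13 and 6.51 CPM with CKI, 57.9, 67.2 and 56.1 CPM with N-OmtOspc, 2.53, 3.31 and 3.09 CPM in untreated cells and 101, 96.9 and 102 CPM with OmtOspc. IL1B was higher by 2.86, CXCL8 by 2.24 and IL6 by 2.23 on the log2 scale, while IL11 was lower, at -1.56. CXCL8 varied within N-OmtOspc, at 67.5, 119 and 127 CPM.

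Glycolysis and hypoxia genes were lower in 21 of 27 and higher in 3, with a median of -0.58. CA9, a carbonic anhydrase induced by hypoxia, was at 27.6, 25 and 23.1 CPM with CKI and at 1.53, 2.65 and 2.28 CPM with N-OmtOspc, while LDHA, lactate dehydrogenase, was lower, at -0.89. VEGFA, the angiogenic factor, was higher, at 1270, 1280 and 1380 CPM against 662, 691 and 690 CPM. Respiratory chain genes were lower in 17 of 25 and higher in 4 (median -0.32), and cytosolic ribosomal proteins were higher in 18 of 25 and lower in none (median 0.33). Core clock genes were higher in 11 of 14 and lower in 2, led by NR1D1, a clock repressor, and DBP, a clock output factor, each at 2.02. The glycolysis and hypoxia list went the other way at 24 h, with 14 higher and 8 lower and a median of 0.45. The respiratory chain list then had 6 higher and 4 lower, with a median of 0.196, or -0.143 when scaled by library totals alone. All 25 cytosolic ribosomal protein genes were higher at 24 h, with a median of 1.18, or 0.834 when scaled by library totals alone.

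The study's question was migration, so adhesion and cytoskeleton genes were examined. None of the 25 genes of integrins and focal adhesions was higher, and 19 were lower, with a median of -0.91 and 11 at least 2-fold lower. PARVA, which links integrins to actin, was at 77.7, 79.2 and 82.8 CPM with CKI and at 21, 20.6 and 17.8 CPM with N-OmtOspc (log2 fold change -1.99 ± 0.07, SE). CAV1, the coat protein of caveolae, was at 263, 244 and 245 CPM against 86.8, 75.6 and 76.3 CPM, and ITGB4 and ITGB1, integrin beta chains, were lower, at -1.57 and -1.25. The median against untreated cells was 0.03 for CKI and -0.46 for N-OmtOspc. At 24 h the list had 1 member higher and 9 lower with N-OmtOspc than with CKI, with a median of -0.335.

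Actin, myosin and SRF target genes were lower in 16 of 25 and higher in 3, with a median of -0.40. ACTG1, cytoplasmic gamma actin, was at 2240, 2220 and 2200 CPM against 752, 723 and 767 CPM. In the urokinase and matrix protease list, 7 of 19 were higher and 9 lower, with PLAU, urokinase, lower, at -2.18 and the collagenase MMP13 higher by 4.49. The study's list of genes related to migration, which it collected from publications, had 49 members higher and 56 lower of 124, with a median of -0.09, and 2 of the 124 had fewer than 10 reads in every CKI library. At 24 h the migration list had 36 higher and 23 lower, with a median of 0.231. The actin, myosin and SRF list then had 5 higher and 5 lower, with a median of 0.146.

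The study named 14 core genes, picked among genes DE with CKI in these cells and shared between gene sets, so that they are not independent evidence, and 13 were tested. Of these 9 were lower and 2 higher, with a median of -0.55. AKT1, a survival kinase, was at 320, 296 and 288 CPM with CKI and at 98.1, 97 and 97.4 CPM with N-OmtOspc. CTNNB1, RB1, APC and AKT2 were lower, at -0.63, -0.65, -0.26 and -0.17, and CCND1 at -1.10. CDH1, epithelial cadherin, was higher by 2.66 from under 1 CPM, and PIK3CA by 0.57. CDK4 and JAK2 were not DE, at -0.11 (adjusted p = 0.0789 by edgeR's quasi-likelihood test) and -0.03.

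To ask whether the removal met the genes that CKI itself changes, the response to CKI was taken from batch 2, which shares no library with the comparison. Of 936 tested genes that rose at least 2-fold with CKI there, 324 (34.6%) were higher and 350 (37.4%) lower with N-OmtOspc than with CKI in batch 1, near the shares over all genes, and the median difference was -0.03. Their median against untreated cells of batch 1 was 1.22 for CKI and 1.27 for N-OmtOspc. Of 763 that fell at least 2-fold, 331 (43.4%) were higher and 270 (35.4%) lower, with medians of -1.05 and -0.98 against untreated cells. Changes of at least 2-fold between the mixtures were more frequent in both sets than over all genes (14.6% higher and 12.8% lower). Of the 936 genes 171 were higher and 191 lower by that much, and of the 763 genes 205 were higher and 142 lower. Targets of AHR, the receptor for dioxin-like compounds, had medians of 1.99 for CKI and 1.77 for N-OmtOspc against untreated cells, but between the mixtures 4 of 6 were lower and 2 higher with N-OmtOspc, with a median of -0.70 and summed levels of 510 to 531 CPM against 958 to 994. Over all genes, 62.5% were called between CKI and untreated cells and 80.4% between N-OmtOspc and untreated cells.

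Whether removing the alkaloids from CKI equals removing them from the medium was tested over the 4 groups of batch 1 at 48 h. The difference between N-OmtOspc and CKI minus that between untreated cells and OmtOspc departed from 0 in 11623 of 15356 genes (75.7%), 5714 higher and 5909 lower. The interaction was 11.8 ± 0.20 (SE) on the log2 scale for HSPA6, 8.23 for IL24, 7.56 for S100P and 7.23 for ARC. It was -8.92 for LGALS12, a galectin, which was at 73.1, 84.7 and 79.8 CPM in untreated cells, 16.7, 14.3 and 15.5 CPM with CKI, and between 1.04 and 2.28 CPM in all libraries of OmtOspc and N-OmtOspc. FAM111B had -7.81.

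All 26 DNA replication genes and all 25 mitotic genes had a lower value in this interaction, and 18 of 20 ATF4 and CHOP genes, 12 of 16 ER chaperones and the 6 metallothionein list members other than MT1M a higher one. Of 7794 genes DE both by removal from CKI and between untreated cells and OmtOspc, 2390 (30.7%) were higher by removal and raised by the alkaloids alone, and 2730 (35%) were lower by removal and lowered by the alkaloids alone. The other 1202 (15.4%) and 1472 (18.9%) were higher by removal and lowered alone, or lower by removal and raised alone. Across 14226 genes the log2 fold changes by removal and of untreated cells against OmtOspc had a Pearson correlation of -0.25, a description, as genes are not independent replicates.

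**Figure D4:**
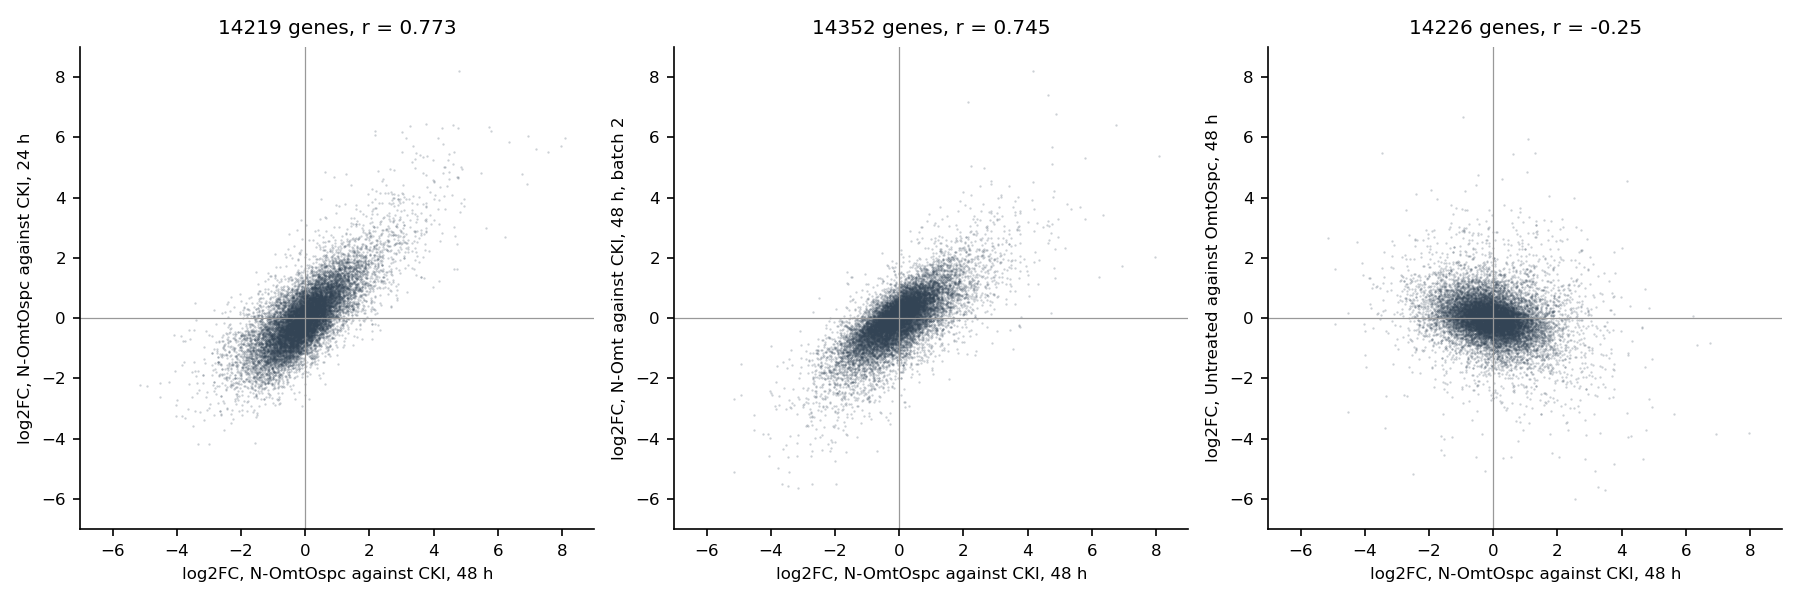
Each point is a gene, with the log2 fold change of N-OmtOspc against CKI at 48 h on the horizontal axis and of a contrast that shares no library with it on the vertical axis. Genes lie along the rising diagonal at 24 h (r = 0.773) and for N-Omt in batch 2 (r = 0.745), and fall slightly for untreated cells against OmtOspc (r = -0.25).

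At 24 h, N-OmtOspc and CKI differed in 7724 of 14315 genes (54%), 3793 higher and 3931 lower. Scaled by library totals alone, which moved the median of all genes to -0.354, the split was 2331 higher (28.4%) against 49.1% with TMM scaling. A library in each 24 h group stood apart: 196 of 9569 genes in CKI replicate 1 and 276 of 9285 in N-OmtOspc replicate 3 were over 2-fold from the mean of the group's other 2 libraries, against 10 to 66 in the others and 0 in each of the 6 libraries at 48 h. Without both, 5194 genes were higher and 5231 lower. Among genes tested at both times, 6201 of the 6663 DE at both had the same direction, the 6663 being 59.6% of those DE at 48 h and 87% of those DE at 24 h.

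Metal and heat shock genes were already high at 24 h. MT1X was at 69.6, 54.4 and 64.1 CPM with CKI and at 645, 658 and 779 CPM with N-OmtOspc, and HSPA6 at 4.42, 0.341 and 0.652 CPM against 82.2, 67.2 and 134 CPM. The groups did not overlap for either gene, and the highest CKI value of HSPA6 was that of replicate 1. The log2 fold change of HSPA6 was 5.71, and 7.31 without both libraries that stood apart. The list medians were 2.56 for metallothioneins and 0.88 for heat shock chaperones, and 2.36 and 0.91 without both libraries that stood apart. CHAC1 was at 10.8, 11.3 and 14.5 CPM against 50.1, 44.4 and 78.4 CPM, and the ATF4 and CHOP median was 0.63, or 0.96 without both. Scaled by library totals alone, which lowered the median of all genes as given above, the medians were 2.22 for metallothioneins, 0.54 for heat shock chaperones and 0.28 for the ATF4 and CHOP branch.

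Cell cycle genes were lower at 48 h than at 24 h relative to CKI. TYMS was at 23.5, 40.9 and 40.3 CPM with CKI at 24 h and at 38.7, 41.2 and 18 CPM with N-OmtOspc, the low values being those of CKI replicate 1 and N-OmtOspc replicate 3. Its log2 fold change was -0.07 (adjusted p = 0.86 by edgeR's quasi-likelihood test), and without both libraries that stood apart 0.02 (adjusted p = 0.866). RRM2 was lower already at 24 h, at 90.9, 82.4 and 88.1 CPM with CKI and 34.6, 37.2 and 21.9 CPM with N-OmtOspc. MKI67 was at 161, 114 and 99.8 CPM against 97.5, 138 and 47.5 CPM, so that the groups overlapped. TYMS and MKI67 were also picked for their large differences between the times. The mitosis list had 14 members lower and 2 higher at 24 h with a median of -0.56. Without both libraries that stood apart it had 15 lower and 5 higher with a median of -0.448, and its median was -0.911 with library totals alone. The DNA replication list had 13 members lower and 2 higher at 24 h with a median of -0.65, and 19 lower and 3 higher with -0.72 without both, and its median was -1.0 with library totals alone.

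The removal effect differed between 48 and 24 h in 4402 of 15292 genes (28.8%), 1964 higher and 2438 lower at 48 h. Scaled by library totals alone, 4271 (76.8%) were higher against 44.6% with TMM scaling, so that the share of each direction depends on the scaling. Without both libraries that stood apart the number was 7967, with 3768 higher and 4199 lower, and without N-OmtOspc replicate 1 of 24 h only 1281 were higher. The difference was -3.31 ± 0.40 (SE) for TYMS, -3.22 for MKI67 and 3.54 for GADD45G. PRSS35 had -4.22, from 67.6, 62.7 and 69.7 CPM with N-OmtOspc at 24 h against 0.676, 2.94 and 3.53 CPM with CKI, to 7.56, 5.82 and 8.49 CPM against 3.61, 5.26 and 5.48 CPM at 48 h. SSTR2, a somatostatin receptor, had -3.45. Of the DNA replication list, 18 of 26 had a lower effect at 48 h and none a higher one. In the glycolysis and hypoxia list, 16 of 27 had a lower effect at 48 h and none a higher one. Its 24 h median of 0.45 was 0.302 without both libraries that stood apart and 0.105 with library totals alone. The study's core genes had 1 higher and 4 lower at 24 h, with a median of 0.0997. CTNNB1 was not DE then, at 0.524 (adjusted p = 0.102 by edgeR's quasi-likelihood test). Without both libraries that stood apart, 7 core genes were higher and 4 lower, with CTNNB1 higher at 0.823. With library totals alone, the 24 h medians of the core, actin and migration lists were -0.252, -0.202 and -0.118.

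**Figure D5:**
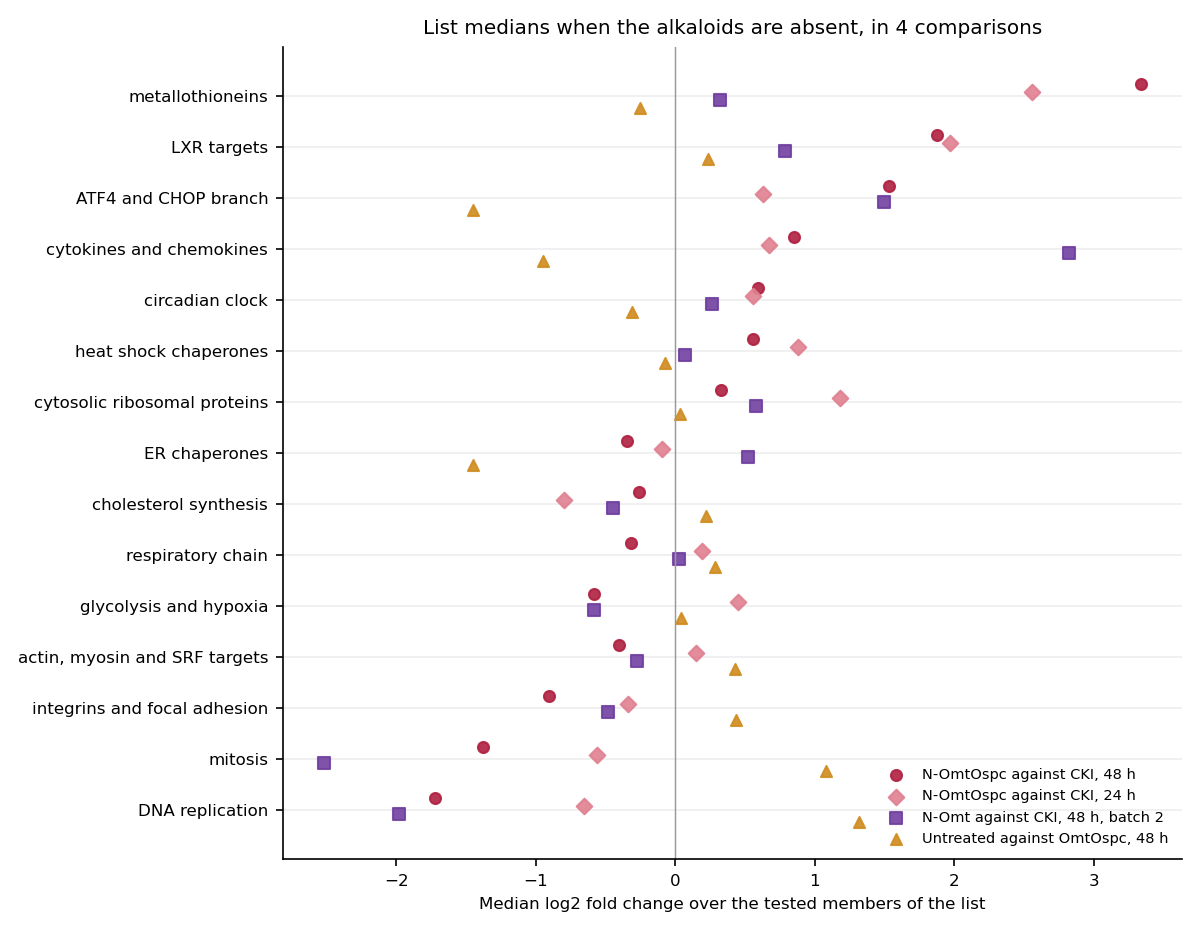
Median log2 fold change over the tested members of 15 gene lists in 4 contrasts, N-OmtOspc against CKI at 48 h (circles) and 24 h (diamonds), N-Omt against CKI (squares) and untreated cells against OmtOspc (triangles). DNA replication is at -1.72, -0.65, -1.98 and 1.32 in that order, and metallothioneins at 3.34, 2.56, 0.32 and -0.25; at 24 h the medians of the respiratory chain and actin lists turn negative with library totals alone.

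CKI lacking oxymatrine alone shared the cell cycle change. N-Omt and CKI differed in 11729 of 14577 genes (80.5%) in batch 2, and 8155 of the 9462 genes DE in both contrasts had the same direction, the 9462 being 84.3% of those DE by removal of both alkaloids and 81.6% of those DE by removal of oxymatrine. RRM2 was at 103, 96.8 and 95.2 CPM with CKI in batch 2 and at 4.12, 4.08 and 3.57 CPM with N-Omt, and MKI67 at 121, 113 and 124 CPM against 5.23, 6.28 and 5.84 CPM. All 25 mitotic genes were lower with N-Omt, with a median of -2.52, and 16 of 20 ATF4 and CHOP genes were higher, with a median of 1.5.

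Metallothioneins and HSP70 genes differed between the mixtures. HSPA1A was at 493, 454 and 486 CPM with CKI in batch 2 and at 395, 367 and 390 CPM with N-Omt, so that it was lower there, and MT1E was at 74.7, 81.4 and 75.9 CPM against 39.4, 38.2 and 35.1 CPM. HSPA6 was at 3.68, 2.91 and 4.65 CPM against 15.4, 14.9 and 14.7 CPM. Of 6 metallothionein list members tested there, 3 were higher and 2 lower with N-Omt than with CKI, with a median of 0.322. Heat shock chaperones had 6 higher and 6 lower, with a median of 0.0734. The effect of removing both alkaloids minus that of removing oxymatrine was 6.00 ± 0.28 (SE) on the log2 scale for HSPA6, 4.93 for GADD45G, 4.62 for MT1F, 4.60 for MT1E, 4.12 for HSPA1A and 4.03 for HSPA1B, and it departed from 0 in 8801 of 15398 genes (57.2%). The 6 metallothionein list members other than MT1M and 8 of 12 heat shock chaperones had a higher effect in N-OmtOspc, 1 chaperone a lower one. The removed compound and the batch cannot be told apart in this difference, since N-Omt was measured in batch 2 alone.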

How the data were processed

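Poly(A) RNA of MDA-MB-231 cells was sequenced as strand-specific paired-end libraries, and the authors deposited raw read counts for 27978 genes in 54 libraries, without normalization. The submitters' processing notes name FastQC 0.11.4, Trim Galore 0.3.7, STAR 2.5.3a, Subread 1.5.2 with featureCounts and edgeR 3.22.3 and the build hg19. Total counts were between 17673537 and 26138924 per library.

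Groups were taken from the sample labels. Low genes were removed by filterByExpr, TMM factors set the scale, and the counts were tested with edgeR 4.0.16 in R 4.3.3 (glmQLFit and glmQLFTest, libraries of the compared groups only), with an adjusted p under 0.05 over all genes tested (Benjamini-Hochberg). SE is the absolute log2 fold change divided by the square root of F. DESeq2 1.42.0 and the other settings are listed in the closing section. Steps were tested on simulated data in which 200 genes were changed by a known fold. Far more genes were DE here, so the simulation does not cover scaling or false calls when most genes change. Named genes were the 12 with the largest rise and the 12 with the largest fall among called genes that averaged 10 CPM or more in a group and did not overlap, up to 4 called members of each of 38 lists, up to 6 genes per interaction, and the study's core genes, some of which are not reported here. List members named beyond these, as well as COL1A1, COL1A2, LUM, DCN and THY1, were chosen after their values were seen. The comparison, the lists and the tests were chosen with earlier results of these data known. Replicate files differed by more than sampling noise. Same-numbered libraries of N-OmtOspc and CKI at 48 h deviated together with correlations of 0.241, 0.0947 and 0.0556. These were not set against correlations of unlike numbers, so they cannot decide a pairing. The labels give none, and the numbers were not taken to pair the libraries. Promoter sequences are from RefSeq (GRCh38.p14), while reads were mapped to hg19, and no coordinates were converted.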

Additional observations from a re-analysis of the deposited data

Results flagged for a closer look

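The items here are differences of the removal effect between settings, each from a test of the difference itself by edgeR's quasi-likelihood test. Between 48 and 24 h the effect differed in 4402 genes, and among the genes with the largest differences were PRSS35 (-4.22), GADD45G (3.54), SSTR2 (-3.45), TYMS (-3.31) and MKI67 (-3.22) on the log2 scale. For TYMS and MKI67 the 24 h values of N-OmtOspc replicate 3 (18 and 47.5 CPM) were the lowest of their group, and GADD45G was highest in it at 26.5 CPM against 6.81 and 6.1.

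Between removal from whole CKI and removal from the alkaloids given alone the effect differed in 11623 genes, with the largest differences in HSPA6 (11.8), LGALS12 (-8.92), IL24 (8.23), FAM111B (-7.81), S100P (7.56) and ARC (7.23). Between the removal of both alkaloids in batch 1 and of oxymatrine in batch 2 it differed in 8801 genes, with the largest differences in HSPA6 (6.00), GADD45G (4.93), MT1F (4.62), MT1E (4.60), HSPA1A (4.12) and HSPA1B (4.03). Batch and removed compound cannot be told apart there.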

How the results depend on the processing

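With a fold change of at least 2 also required, the number of genes called was 4113 at 48 h (2195 higher, 1918 lower), 3982 at 24 h (2074 and 1908), 3266 for N-Omt (1473 and 1793) and 2032 for untreated cells against OmtOspc (1030 and 1002). Scaling by library totals alone gave 2331 higher at 24 h and 4271 higher and 1291 lower for the difference between times, and 39.7% higher against 49.7% for untreated cells against OmtOspc. Without both 24 h libraries that stood apart, a setting chosen after seeing the data, the difference between times had 7967 genes (3768 and 4199). Taking genes changed by CKI in batch 2 without a fold threshold gave medians of -0.102 and -0.0845. The causes of these shifts beyond the added threshold were not tested.

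Leaving out each library in turn gave 11341 to 11603 genes at 48 h (5596 to 5739 higher, 5722 to 5878 lower), 6060 to 8179 at 24 h, and 3125 to 6281 for the difference between times (1281 to 2925 higher, 1844 to 3356 lower). With a replicate block, which assumes a pairing the labels do not give, the counts were 11869 at 48 h, 7558 at 24 h, 11838 for N-Omt and 9508 for untreated cells against OmtOspc, and no named gene changed its call. DESeq2 gave 11190 at 48 h, no filter 12568, a filter at an average of 1 CPM 10850, and the fit over all 18 libraries 11346.

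No named gene that was called, as reported or in the setting, turned its direction at 48 h or in an interaction that named it. Sign changes of genes called in neither fit were not counted there. At 24 h without both libraries that stood apart, 6 named genes changed sign: FOSB from -0.43 (adjusted p = 0.665) to 1.39 (adjusted p = 1.22e-07), and 5 others (MKI67, TYMS, ITGB5, ID3 and ABCC2) that were called in neither fit, by edgeR's quasi-likelihood test. With the fold threshold 32 of 163 named genes were no longer called. CDK4 was called with library totals alone (adjusted p = 0.0376), with no filter (0.0336) and without CKI replicate 3 (0.0417), and AKT2 was not called in the fit over all 18 libraries (0.0743), all by edgeR's quasi-likelihood test. Limits are the 3 libraries a group, a dose matched as an equivalent of CKI, and N-Omt measured in batch 2 alone. Depth limits genes near 0 with CKI, such as MT1M, where a bound is given in place of a fold.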
